A study of Homo sapiens with 2 samples.

Results

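The genes described here are those of respiratory complex I whose names start with NDUF, in BE(2)-C cells, an established human neuroblastoma line with amplified MYCN that was subcloned from SK-N-BE(2). They were taken from the deposited table by name, leaving out names that end in P plus a number and names with -AS. That rule selected 47 of 16005 genes and left out 4 NDUF rows. By the known make-up of the enzyme, the 47 are 37 subunit genes, 8 NDUFAF assembly factor genes, and NDUFA4 and NDUFA4L2, which carry the name but are not complex I subunits. Wild-type cells were grown either in EMEM/F12, a classical culture medium, or in HPLM, a medium modelled on the metabolites and salts of human plasma. Both groups were kept for 7 days, with 10% FBS and 1% P/S. GEO lists 1 sample per medium, and the table holds 3 library columns for each, and nothing says that these came from separate cultures. The p-values therefore reflect variation among libraries, and that variation may be technical.

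Complex I takes electrons from NADH, passes them along iron-sulfur clusters to ubiquinone and pumps protons across the inner mitochondrial membrane. It is L-shaped: a peripheral arm in the matrix carries the NADH site and the clusters, and a membrane arm carries the proton channels. Core subunits, conserved from bacteria, do the catalysis. Those of the membrane arm are encoded by mitochondrial DNA and those of the peripheral arm by the nucleus. Accessory subunits surround the core, and assembly factors help to build the enzyme without staying in it.

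Below, rose and fell refer to HPLM relative to EMEM/F12 and are used of genes with an adjusted p (DESeq2) under 0.05 in the authors' deposited table. Across all genes with a p-value this held for 55.6%, with 26.8% higher and 28.8% lower. Of the 47 NDUF genes, 6 rose, 19 fell and 22 did not pass. Among the 37 subunit genes 3 rose and 16 fell, and among the 8 NDUFAF genes 2 rose and 2 fell. All 47 had a p-value, and the lowest library value of any was 25.03 normalised reads, above the level that 3 reads represent (2.68 to 3.49 normalised reads).

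The changes were small. Only NDUFA4L2 and NDUFB4 were called with a change of at least 1.5-fold, while 26.3% of all genes were. The median size of the log2 fold change in the authors' deposited table was 0.19 over the 47 genes and 0.37 over all genes. The median signed log2 fold change was -0.16 for subunit genes, -0.04 for NDUFAF genes and 0.0085 for all genes. With reads scaled to the external RNA spike-ins instead, DESeq2 called 2 of the 47 genes higher and 23 lower, against 22.6% and 32.1% of all genes.

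Library depth ranged from 17504237 to 21676080 reads. All 12 adrenergic neuroblastoma markers were measured, with 3 higher and 8 lower. Their summed level was 300258, 298282 and 256732 normalised reads in EMEM/F12 libraries 1 to 3 and 226015 to 235409 in HPLM. Of other cell types 1 of 6 blood and 1 of 5 endothelial markers and 3 of 5 Schwann and glial markers were measured. All 6 fibroblast markers were measured. Their summed level was 35561 and 37786 normalised reads in EMEM/F12 libraries 1 and 2 but 81475 in library 3, and 62658 to 70023 in HPLM. The largest term of that sum, the collagen gene COL1A1, had 21276, 22731 and 53750 normalised reads in EMEM/F12 and 46585, 48410 and 43007 in HPLM, and did not pass. None of the 6 fibroblast markers rose and 2 fell, PDGFRB (log2 ratio -1.48) and LUM (-0.98), both with all HPLM values below EMEM/F12. The part of these marker shifts in the changes of NDUF genes was not tested. EMEM/F12 library 3 also differed in other genes: 344 were counted at least 2-fold above both other EMEM/F12 libraries, and 79 at least 2-fold below. For the 47 NDUF genes, the ratio of library 3 to the mean of libraries 1 and 2 ran from 0.83 to 1.47. Without EMEM/F12 library 3, DESeq2 called 5 of the 47 genes higher and 18 lower. The share of all genes called in that fit was not computed, so these counts do not show whether library 3 matters for NDUF genes. Fewer cells of a type and less RNA per cell cannot be told apart in these bulk libraries.

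Promoter sequence is shown for 3 genes because they are the subunit gene with the largest fall (NDUFB4), the accessory subunit gene of the peripheral arm with the largest fall (NDUFA6) and the assembly factor gene with the largest rise (NDUFAF4). They were chosen after their values were seen. Each run is the 250 bases before the RefSeq start site on GRCh38.p14, written 5′ to 3′ on the gene's own strand. NDUFB4 lies at chr3:120596086-120596335 on the plus strand, NDUFA6 at chr22:42090773-42091022 on the minus strand and NDUFAF4 at chr6:96897892-96898141 on the minus strand. Capitals mark letters that match motifs of NRF1 (GCGCATGC, either strand) or of ETS factors such as GABPA (CCGGAAG, either strand), both known regulators of nuclear genes for respiration.
NDUFB4: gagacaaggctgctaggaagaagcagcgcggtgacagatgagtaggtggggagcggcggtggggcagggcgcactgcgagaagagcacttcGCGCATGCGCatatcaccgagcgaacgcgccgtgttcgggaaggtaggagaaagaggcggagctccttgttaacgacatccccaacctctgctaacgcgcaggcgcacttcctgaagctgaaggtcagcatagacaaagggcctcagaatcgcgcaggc
NDUFA6: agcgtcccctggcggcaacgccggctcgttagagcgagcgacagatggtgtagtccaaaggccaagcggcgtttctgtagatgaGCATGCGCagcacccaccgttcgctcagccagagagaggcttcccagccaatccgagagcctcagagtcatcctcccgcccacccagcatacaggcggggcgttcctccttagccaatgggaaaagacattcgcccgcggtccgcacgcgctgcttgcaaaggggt
NDUFAF4: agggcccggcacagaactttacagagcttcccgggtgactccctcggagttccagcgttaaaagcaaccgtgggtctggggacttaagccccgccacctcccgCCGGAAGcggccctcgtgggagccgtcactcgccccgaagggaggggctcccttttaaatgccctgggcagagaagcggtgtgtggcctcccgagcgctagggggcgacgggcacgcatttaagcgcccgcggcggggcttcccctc

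In NDUFB4 a pair of NRF1 matches on opposite strands overlap, with first bases at -159 and -157 from the start site. The match in NDUFA6 begins at -166. NDUFAF4 has its ETS match at -147 and an NRF1 match at 7 after the start site, outside the printed run. Promoter windows from 250 bases before to 50 after the start were found for 39 of the 47 genes. The NRF1 letters were in 8 of these 39 (20.5%), against 3.68% of 27305 genes with a window. Of the 8 genes 5 fell, 2 rose and 1 did not pass, so genes with these letters moved in both directions. The ETS letters were in 7 of 39 (17.9%, all genes with a window 12.2%). YY1 letters (AAGATGGC) were in 8 (20.5%, all genes with a window 3.52%). The E-box CACGTG bound by MYC and MYCN was in 4 (10.3%, all genes with a window 8.77%). The 27305 genes with a window include genes that were not measured here. Shares among measured genes were not computed, so these figures do not show that the letters are particular to NDUF genes. A match describes the sequence and not a bound site.

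The 7 nuclear core subunit genes were mostly lower in HPLM: 5 fell, none rose, and NDUFS8 and NDUFV2 did not pass. NDUFV1 encodes the subunit that binds NADH and flavin. It had 4800, 4724 and 4389 normalised reads in EMEM/F12 libraries 1 to 3 and 4049, 4032 and 3923 in HPLM. All HPLM values lay below all EMEM/F12 values, with a log2 ratio of the means of -0.21 ± 0.04 (SE from the SDs of 3 libraries per medium) and an adjusted p of 2.46e-05 in the authors' deposited table.

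NDUFS1 is the largest core subunit and carries several iron-sulfur clusters. Its values were 3102, 3222 and 3142 normalised reads in EMEM/F12 and 2781, 2913 and 2696 in HPLM, a log2 ratio of -0.17 ± 0.04. The media did not overlap. NDUFS7, which holds the last cluster before ubiquinone, had 2317, 2167 and 1954 normalised reads in EMEM/F12 and 1809, 1743 and 1813 in HPLM (log2 ratio -0.26 ± 0.07). The EMEM/F12 values of NDUFS7 were widely spread, with library 3 lowest.

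NDUFS3, a subunit of the ubiquinone-binding module, had 474, 441 and 532 normalised reads in EMEM/F12 and 427, 399 and 392 in HPLM (log2 ratio -0.25 ± 0.09, adjusted p 0.0298 in the authors' deposited table). The call was lost by DESeq2 without EMEM/F12 library 1 or 3, and without HPLM library 2 or 3. NDUFS8, which carries a pair of clusters in the same part of the arm, was nearly level, with 1222, 1165 and 1166 normalised reads in EMEM/F12 and 1164, 1213 and 1160 in HPLM (log2 ratio -0.01 ± 0.03). NDUFV2, the partner of NDUFV1, had only 89.7, 74.4 and 91.3 normalised reads in EMEM/F12 and 82.7, 58.0 and 71.5 in HPLM (log2 ratio -0.27 ± 0.17). Of the 50-letter words in its transcript 81.95% also occur in another GENCODE gene, namely an overlapping gene model and the pseudogene NDUFV2P1. Its level is therefore uncertain.

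The membrane-arm core subunits are mitochondrially encoded, and all 7 of these genes passed, 5 higher and 2 lower. MT-ND2 changed most, from 63512, 60300 and 61959 normalised reads in EMEM/F12 to 100955, 112781 and 98899 in HPLM, and MT-ND3 and MT-ND6 rose while MT-ND4L and MT-ND4 fell. Some of these genes overlap one another or lie on opposite strands. As the library preparation keeps no strand information, their values are uncertain, and the rise of MT-ND6 was not called with spike-in scaling. Mitochondrial genes of this list with a smaller rise than MT-ND6 were not checked with that scaling.

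Of the 30 accessory subunit genes 3 rose, 11 fell and 16 did not pass. The largest falls were in NDUFB4 and NDUFS5, both of the membrane arm. NDUFB4, a single-span membrane subunit (ENSG00000065518, GRCh38 chromosome 3, 120596309 to 120602500), had 1073, 1069 and 1115 normalised reads in EMEM/F12 and 724, 722 and 724 in HPLM. The HPLM values were almost identical to each other, and the log2 ratio was -0.59 ± 0.02 (adjusted p 1.47e-15 in the authors' deposited table). NDUFB4 has 12 named pseudogenes in GENCODE release 29, and 12.4% of its words are shared. NDUFS5, which sits on the intermembrane face (ENSG00000168653, chromosome 1, 39026318 to 39034636), had 1137, 1219 and 1186 normalised reads in EMEM/F12 and 837, 788 and 782 in HPLM. Its log2 ratio was -0.56 ± 0.04, with no overlap between media (adjusted p 2.72e-14 in the authors' deposited table).

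The next falls were in NDUFB6, NDUFA6, NDUFB10 and NDUFAB1. NDUFB6, a membrane-arm subunit, had 535, 534 and 554 normalised reads in EMEM/F12 and 436, 427 and 420 in HPLM (log2 ratio -0.34 ± 0.02). NDUFA6, a protein of the LYR family that binds the acyl carrier protein, had 1463, 1368 and 1370 in EMEM/F12 and 1110, 1110 and 1119 in HPLM (log2 ratio -0.33 ± 0.03). In both the media were well apart. NDUFAB1 is that acyl carrier protein, which also serves mitochondrial fatty acid synthesis, and is present in both arms. It had 1021, 978 and 954 normalised reads in EMEM/F12 and 847, 788 and 815 in HPLM (log2 ratio -0.27 ± 0.04). NDUFB10, also of the membrane arm, had 1582, 1502 and 1567 in EMEM/F12 and 1299, 1196 and 1312 in HPLM (log2 ratio -0.29 ± 0.05).

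The accessory genes that fell by less were NDUFS6, NDUFA8, NDUFA10, NDUFV3 and NDUFB11, with log2 ratios from -0.23 to -0.16. NDUFS6 encodes the zinc-binding subunit of the NADH-oxidising module. It went from 1721, 1702 and 1687 normalised reads in EMEM/F12 to 1475, 1431 and 1450 in HPLM, a change of -14.8% with values close together in each medium. The calls of NDUFV3 and NDUFB11 were lost without EMEM/F12 library 2, and that of NDUFB11 also without EMEM/F12 library 1 or HPLM library 2.

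NDUFC2, NDUFA11 and NDUFA5 were the accessory genes that rose. NDUFC2, a small membrane-arm subunit, had 371, 367 and 359 normalised reads in EMEM/F12 and 430, 422 and 432 in HPLM (log2 ratio 0.23 ± 0.02, adjusted p 0.0444 in the authors' deposited table). NDUFA11, a membrane subunit that contacts complex III in supercomplexes, had 796, 666 and 725 in EMEM/F12 and 833, 842 and 872 in HPLM (log2 ratio 0.22 ± 0.08). NDUFA5, of the peripheral arm, had 1246, 1287 and 1291 in EMEM/F12 and 1463, 1423 and 1450 in HPLM (log2 ratio 0.18 ± 0.02). In all 3 genes the HPLM values were above the EMEM/F12 values, but none of the 3 was called with spike-in scaling. NDUFC2 was also not called in DESeq2 fits that left out any 1 library, and NDUFA11 not without EMEM/F12 library 2 or HPLM library 2 or 3. NDUFA11 shares 63.9% of its words with an overlapping gene model and is uncertain.

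The 16 accessory genes that did not pass were NDUFA1, NDUFA2, NDUFA3, NDUFA7, NDUFA9, NDUFA12, NDUFA13, NDUFB1, NDUFB2, NDUFB3, NDUFB5, NDUFB7, NDUFB8, NDUFB9, NDUFC1 and NDUFS4. Their log2 ratios ran from -0.20 in NDUFB8 to 0.16 in NDUFB1. NDUFB7 and NDUFS4, a regulatory subunit often mutated in Leigh syndrome, had log2 ratios of 0.05 ± 0.07 and 0.08 ± 0.03. NDUFA7 and NDUFB8 share 76.8% and 72.7% of their words with other gene models and are uncertain. NDUFA7 had 25.03 to 50.6 normalised reads per library.

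By position, 1 of the 9 accessory genes of the peripheral arm rose and 3 fell, and 2 of the 20 of the membrane arm rose and 7 fell. Summed over the 37 subunit genes, the level was 43862, 42835 and 42210 normalised reads in EMEM/F12 and 39021, 38208 and 38531 in HPLM, a change of -10.2% with no overlap. All genes together changed by -3.90% on the same scale. Leaving out the 4 subunit genes that share more than 50% of their words, 2 of 33 subunit genes rose and 16 fell.

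**Figure D1:**
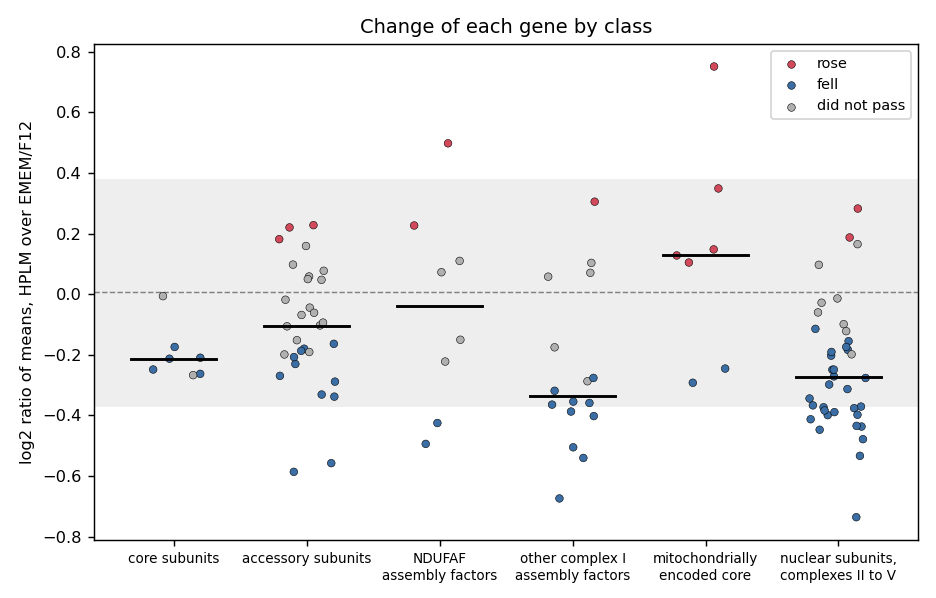
Log2 ratio of the medium means, HPLM over EMEM/F12 (y axis), for each gene of 6 classes (x axis). Points are genes, coloured by whether they rose, fell or did not pass, thick lines are class medians, the dashed line is the median of all genes and the grey band spans their quartiles (-0.37 to 0.38). The core subunits all lie below 0, and the NDUFAF genes range from -0.49 to 0.50.

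The NDUFAF genes did not share a direction. NDUFAF4 and NDUFAF3 rose, NDUFAF7 and NDUFAF2 fell, and NDUFAF1, NDUFAF5, NDUFAF6 and NDUFAF8 did not pass. NDUFAF4 encodes a membrane-associated factor that works with NDUFAF3 early in assembly (ENSG00000123545, chromosome 6, 96889313 to 96897881). It had 516, 511 and 517 normalised reads in EMEM/F12 and 722, 769 and 690 in HPLM. All 3 HPLM libraries were well above EMEM/F12, with a log2 ratio of 0.50 ± 0.05 (adjusted p 3.18e-08 in the authors' deposited table), and its call and direction held in all 14 alternatives. NDUFAF3 had 660, 640 and 705 in EMEM/F12 and 799, 765 and 782 in HPLM (log2 ratio 0.23 ± 0.05, adjusted p 0.01 in the authors' deposited table). Its call was lost with spike-in scaling and without EMEM/F12 library 2 or HPLM library 1.

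NDUFAF7 encodes a mitochondrial methyltransferase needed for complex I assembly (ENSG00000003509, chromosome 2, 37231631 to 37253403). It had 204, 217 and 237 normalised reads in EMEM/F12 and 159, 153 and 156 in HPLM (log2 ratio -0.49 ± 0.07, adjusted p 0.00177 in the authors' deposited table). The HPLM values were tightly grouped below all EMEM/F12 values. NDUFAF2, a paralogue of NDUFA12 that holds its place before the last module joins, had 332, 348 and 339 in EMEM/F12 and 253, 245 and 261 in HPLM (log2 ratio -0.43 ± 0.03, adjusted p 0.000682 in the authors' deposited table). NDUFA12 itself, which takes that place in the finished enzyme, had a log2 ratio of -0.07 ± 0.08 and did not pass.

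Among the factors that did not pass, NDUFAF1 belongs to the assembly complex that builds the ND2 module. It had 469, 487 and 455 normalised reads in EMEM/F12 and 488, 515 and 480 in HPLM (log2 ratio 0.07 ± 0.04). NDUFAF5, which hydroxylates an arginine of NDUFS7, had 303, 281 and 298 in EMEM/F12 and 284, 251 and 259 in HPLM (log2 ratio -0.15 ± 0.06). Its partner NDUFAF8 had 519, 542 and 531 in EMEM/F12 and 627, 534 and 557 in HPLM (log2 ratio 0.11 ± 0.07). The media overlapped in these 3 genes. NDUFAF6, an early factor related to squalene and phytoene synthases, had 199, 235 and 191 in EMEM/F12 and 183, 178 and 174 in HPLM without overlap, and a log2 ratio of -0.22 ± 0.10.

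The share of library ranges that did not overlap can be set beside the same share of all genes. Of the 47 genes 24 lay wholly below EMEM/F12 in HPLM and 8 wholly above, against 35.0% and 33.6% of all genes (68.6% in either direction). In the core 5 of 7 lay below and none above, and among NDUFAF genes 3 of 8 lay below and 2 above. Summed over the 8 NDUFAF genes, the level was 3202, 3261 and 3274 normalised reads in EMEM/F12 and 3516, 3410 and 3361 in HPLM. That sum was 7.30, 7.61 and 7.76% of the subunit sum in EMEM/F12 and 9.01, 8.92 and 8.72% in HPLM. Without NDUFAF4 the NDUFAF sum was 2731 ± 39.0 in EMEM/F12 and 2702 ± 81.2 in HPLM (SD, 3 libraries each), a difference smaller than the spread between libraries. The classes were not tested against each other, because genes are not replicates.

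**Figure D2:**
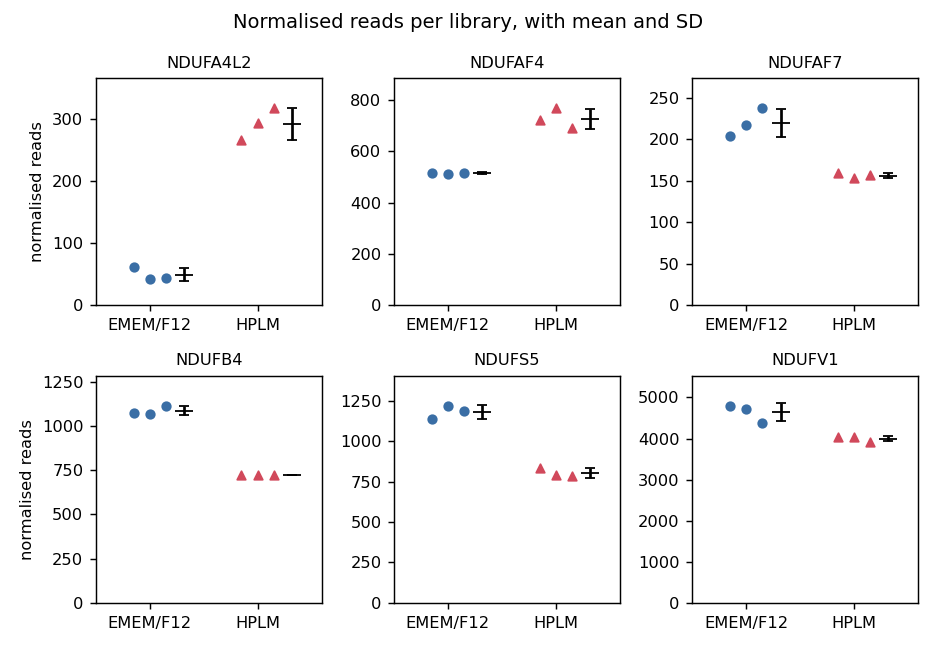
Normalised reads (y axis, from 0) of 6 genes in the EMEM/F12 libraries (circles) and HPLM libraries (triangles), in the order 1 to 3, with the mean and SD of the 3 libraries beside them. NDUFA4L2 and NDUFAF4 are higher in all HPLM libraries, and NDUFAF7, NDUFB4, NDUFS5 and NDUFV1 lower.

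NDUFA4L2 stood apart from the other 46 genes. It encodes a small mitochondrial protein known as a target of hypoxia-inducible factor, and it is a paralogue of NDUFA4, now counted as a subunit of complex IV. NDUFA4L2 (ENSG00000185633, chromosome 12, 57234903 to 57240715, minus strand) had 61.8, 43.0 and 43.6 normalised reads in EMEM/F12 and 266, 295 and 318 in HPLM. The HPLM mean of 293 ± 26.1 was 5.92-fold the EMEM/F12 mean of 49.5 ± 10.7 (SD, 3 libraries each), with a log2 ratio of 2.57 ± 0.20 and an adjusted p of 5.97e-41 in the authors' deposited table. NDUFA4 moved the other way, from 2752, 2584 and 2683 normalised reads to 2359, 2316 and 2414 (log2 ratio -0.18 ± 0.03), with no overlap between media.

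Per kilobase of its main annotated transcript, NDUFA4L2 rose from 41.7 ± 9.04 to 247 ± 22.04 normalised reads, while NDUFA4 stood at 1255 ± 39.7 and 1110 ± 22.9. NDUFA4L2 thus remained the lower of the paralogues in both media. On the same scale the 37 subunit genes had a median of 823 in EMEM/F12 and ranged from 57.0 in NDUFA7 to 2906 in NDUFV1, with NDUFB9 (2889 ± 76.3) and NDUFB7 (2805 ± 209.9) within the spread of NDUFV1 (2906 ± 137). The 8 NDUFAF genes had a lower median, 268 in EMEM/F12 and 321 in HPLM, and only NDUFAF8 (863 ± 18.03 in EMEM/F12) exceeded the subunit median. Levels per length depend on the transcript chosen: NDUFS1 and NDUFA9, at 267 and 96.0 in EMEM/F12, have annotated transcripts of 11819 and 8363 bases.

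**Figure D3:**
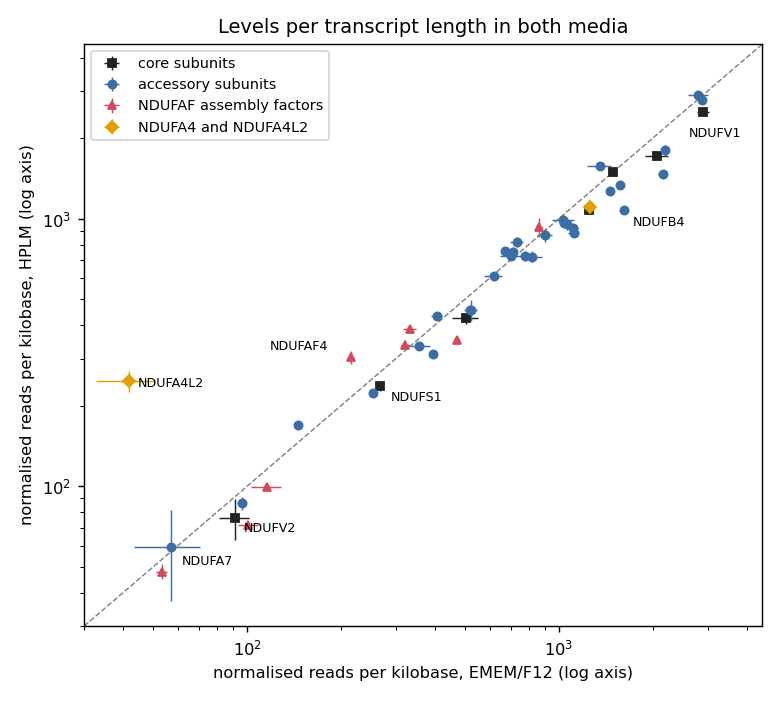
Mean normalised reads per kilobase of transcript in EMEM/F12 (x axis) and HPLM (y axis), both on log axes, with SDs over 3 libraries as bars, for the 47 genes by class. The dashed line marks equal levels, and NDUFA4L2 lies farthest above it, at 41.7 in EMEM/F12 and 247 in HPLM.

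Complex I has further assembly factors without an NDUF name, and 10 of 16 listed here fell while only LYRM2 rose. RTN4IP1, which also acts in coenzyme Q synthesis, had 249, 262 and 261 normalised reads in EMEM/F12 and 151, 141 and 192 in HPLM (log2 ratio -0.67 ± 0.14). COA1 and ACAD9, partners of NDUFAF1 in the ND2 assembly complex, had log2 ratios of -0.54 ± 0.03 and -0.51 ± 0.04. ACAD9 went from 1490, 1504 and 1385 normalised reads to 1016, 1023 and 1047, while NDUFAF1 did not pass. TIMMDC1 (log2 ratio -0.36 ± 0.03) and FOXRED1 (-0.32 ± 0.06) fell, and NUBPL, which delivers iron-sulfur clusters to complex I, had 0.07 ± 0.07 and did not pass. The median log2 fold change of these 16 genes was -0.34 in the authors' deposited table, against -0.04 for the NDUFAF genes.

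Iron-sulfur cluster genes were mixed, with 3 of 15 measured genes higher and 7 lower. ISCU, the scaffold protein gene, rose from 1651, 1602 and 1567 normalised reads to 2196, 2169 and 2158 (log2 ratio 0.44 ± 0.02), and GLRX5 and HSPA9 rose too, although neither was called with spike-in scaling. BOLA3 (log2 ratio -0.57 ± 0.11) and FDX2 (-0.53 ± 0.19) fell, the latter not called without EMEM/F12 library 1 or 2 or HPLM library 3. Among 12 regulators of mitochondrial biogenesis 4 rose and 5 fell. The coactivator gene PPARGC1A rose from 197, 230 and 213 normalised reads to 474, 525 and 481 (log2 ratio 1.21 ± 0.08), and its relative PPARGC1B fell from 677, 650 and 624 to 310, 283 and 348 (log2 ratio -1.05 ± 0.09). GABPB1 (0.50 ± 0.03) and YY1 (0.25 ± 0.04) rose, and PPRC1 (-0.40 ± 0.04) and TFB2M (-0.33 ± 0.02) fell. NRF1, named here after its values were seen because its motif was searched, fell from 478 ± 32.7 to 394 ± 10.7 normalised reads (SD, 3 libraries each). Its call was lost without EMEM/F12 library 2 or HPLM library 1. For the same reason GABPA and MYCN, the latter an adrenergic marker, are given. GABPA rose (log2 ratio 0.25 ± 0.05) and MYCN fell (-1.30 ± 0.08). Neither was checked under the alternatives.

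For comparison, 28 of 38 nuclear subunit genes of complexes II to V fell (73.7%) and 2 rose, with a median log2 fold change of -0.27 in the authors' deposited table. For the complex I subunit genes those figures were 16 of 37 (43.2%), 3 and -0.16. The difference between these lists was not tested.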

How the data were processed

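Polyadenylated RNA of BE(2)-C cells was sequenced, 3 libraries per medium, with a TruSeq v2 kit (per the labels' protocols), which keeps no strand information. The submitters' processing notes name GRCh38 and, without roles, DESeq2, Subread 1.5.2, STAR 2.5.2b and Trimmomatic 0.36. The annotation, strand setting and filters were, however, not given in the sources used here. A single table of 16051 rows (46 spike-ins) was deposited. Per library, the deposited signal is a read number over a size factor, judged from its values, of which 100% came out whole within 0.01 reads. The authors' own log2 fold changes and p-values, raw and adjusted, are in it too, per the file headers.

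The DESeq2 test reported is the authors', over all rows. Means, SDs and log2 ratios with propagated SEs were computed with Python 3.11.15. Alternatives on recovered reads used DESeq2 1.42.0, edgeR 4.0.16 and limma 3.58.1 in R 4.3.3. They had other scalings and filters, a replicate block and each library left out, and other thresholds were applied to the deposited values. Only default DESeq2, edgeR without a filter and limma-voom were run on simulated data. GENCODE release 29 gave positions, lengths (principal transcript) and shared 50-letter words, and RefSeq (GRCh38.p14) gave promoters. The lowest row total was 61 reads, so rarer genes were not analysed here. The limit of 3 reads covers counting error only.

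Named are the core and NDUFAF genes, up to 6 accessory genes with the largest rise and fall, and up to 3 each way per other list, with NUBPL, FOXRED1 and TIMMDC1; some genes of these lists are counted but not reported by name here. Members and lists were chosen with earlier results of these data known.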

Additional observations from a re-analysis of the deposited data

How the results depend on the processing

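Of the 25 called NDUF genes, 18 kept direction and call under all 14 alternatives (16 that fell and 2 that rose, NDUFAF4 and NDUFA4L2), and no called gene changed sign. Some alternatives could not differ: thresholds of 0.01 and 0.1 kept the deposited fold changes and so their signs. A threshold of 0.1 could also lose no call. The count of genes that fell stayed within 1.5 times its value throughout, for all NDUF genes, subunits, core subunits and NDUFAF genes. The counts that rose were less stable. For all NDUF genes (6) they were 3 at an adjusted p under 0.01, 2 with spike-in scaling and 2 with the library number as a replicate block. For subunits (3) they were 1, 0 and 0, and for NDUFAF genes (2) they were 1, 1 and 1. Leaving out 1 library gave 3 to 5 higher NDUF genes, 1 to 2 higher subunits and 1 to 2 higher NDUFAF genes. The lowest count came without EMEM/F12 library 2 for all NDUF genes, without that library or HPLM library 2 or 3 for subunits, and without that library or HPLM library 1 for NDUFAF genes. Counts for core subunits alone and without genes of shared words were added after seeing the data. The median log2 fold change moved with spike-in scaling from -0.04 to -0.10 for NDUFAF genes and from -0.16 to -0.23 for subunit genes. That scaling shifted the median of all genes from 0.0085 to -0.05. Deviations of same-numbered libraries correlated at -0.10, -0.10 and -0.20, and those of differently numbered libraries at -0.09 to 0.19. These values cannot show whether libraries were paired in culture or preparation. The block left 2 NDUF genes higher and 16 lower, against 21.5% and 23.4% of all genes. Shares of all genes were not computed for the other thresholds or for fits without 1 library. The causes were not tested. Few assigned reads limit NDUFV2 and NDUFA7, whose log2 ratios have SEs of 0.17 and 0.37.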
